A study of Mus musculus with 6 samples.

Results

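The guanylate-binding proteins (Gbp genes) and the immunity-related GTPases (Irg genes) are large GTP-hydrolysing proteins that cells make when interferon-γ reaches them. 10 of these genes were measured by RNA sequencing in T cells from mice, kept together with tumour cells of the mouse ovarian cancer line ID8 that had first been given cisplatin or buffer. The 10 genes are Gbp2, Gbp3, Gbp4, Gbp5, Gbp6, Gbp7, Gbp8, Gbp9, Igtp and Irgm1. They were taken by gene symbol from a table of 54532 genes, and all 10 were found and tested. Spleens of C57BL/6 mice aged 6 to 8 weeks supplied the T cells, which were isolated with a pan-T kit, grown with IL-2 at 10 ng/mL and pre-activated with anti-CD3/CD28 beads for 72 h. Both groups share these steps. In the cisplatin group (n = 3 libraries) the ID8 cells had been pretreated with 40 µM cisplatin, and in the control group (n = 3 libraries) with PBS. The labels list the drug as the treatment of the T-cell samples, while the series design places it on the tumour cells before the co-culture. The duration of the co-culture is not given in the sources used here. The methods speak of biological replicates, but neither they nor the labels name separate mice or cultures for the libraries, so the p-values measure only the spread between these libraries, which may be technical.

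Interferon-γ binds the receptor chains Ifngr1 and Ifngr2, and the kinases Jak1 and Jak2 start a signal that reaches target genes through a promoter element called GAS. The factor Irf1, itself induced, acts through a further element, the ISRE, which type I interferons use as well. In mice the Gbp genes lie in one cluster on chromosome 3 and another on chromosome 5, while most Irg genes lie on chromosome 11. The proteins are best known for coating the vacuoles of intracellular parasites and bacteria, and T cells that make or meet interferon-γ express them too.

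The promoter windows of these genes were searched for matches to the elements through which interferons act. The stretch up to the base before the RefSeq gene start is printed here for each member with a RefSeq window (GRCm38.p6). Windows ran from 250 bases before to 50 bases after a start and were found for 6 of the 10 genes. Gbp4, Gbp6, Gbp8 and Gbp9, the members on chromosome 5, had no window. GAS was searched as TTCNNNGAA and the ISRE as GAAA followed by GAAA after any 2 bases, on both strands, and matches are in capitals.
Gbp2, chr3:142620543-142620662, + strand: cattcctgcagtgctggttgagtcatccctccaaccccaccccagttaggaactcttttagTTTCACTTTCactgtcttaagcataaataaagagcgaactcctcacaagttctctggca
Gbp3, chr3:142559924-142560043, + strand: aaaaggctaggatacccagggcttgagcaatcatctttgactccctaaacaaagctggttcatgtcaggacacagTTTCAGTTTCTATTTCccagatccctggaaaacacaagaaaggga
Gbp5, chr3:142496754-142496933, + strand: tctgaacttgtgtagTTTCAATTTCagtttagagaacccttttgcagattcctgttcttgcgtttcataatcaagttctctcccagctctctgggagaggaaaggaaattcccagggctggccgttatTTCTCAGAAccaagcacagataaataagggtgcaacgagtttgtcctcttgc
Gbp7, chr3:142530216-142530335, + strand: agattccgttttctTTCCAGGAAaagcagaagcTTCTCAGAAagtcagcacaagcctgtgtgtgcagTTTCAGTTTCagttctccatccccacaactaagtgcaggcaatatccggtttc
Irgm1, chr11:48871421-48871540, - strand: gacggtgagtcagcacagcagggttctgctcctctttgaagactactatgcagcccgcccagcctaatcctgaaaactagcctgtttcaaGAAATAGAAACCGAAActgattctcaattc
Igtp, chr11:58199436-58199555, + strand: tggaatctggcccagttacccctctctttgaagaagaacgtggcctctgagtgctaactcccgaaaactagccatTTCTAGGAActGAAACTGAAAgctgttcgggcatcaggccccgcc
The capitals in Gbp3 and in Irgm1 are each a pair of overlapping ISRE matches, while the GAS and ISRE matches of the other genes did not overlap. An ISRE match was present in 6 of the 6 genes, against 3.99% of all 27025 genes with a window. Relative to the RefSeq start, the match began at base -59 in Gbp2, -45 and -39 in Gbp3, -165 in Gbp5, -53 in Gbp7, -34 in Igtp, and -30 and -24 in Irgm1. The gene spans of the deposited table, given with each gene below, begin earlier than the RefSeq start for Gbp2, Gbp3, Gbp5 and Irgm1, and the ISRE matches of Gbp2, Gbp5 and Irgm1 lie inside those spans. A GAS match was present in 3 of the 6 genes, Gbp5, Gbp7 and Igtp, against 9.55% of all genes. Gbp5 held a further GAS match that began at base -245, outside the printed stretch. A second window of Gbp3, at a later start, held neither. Of the related GTPase genes listed below, 7 of 10 with a window held an ISRE match and 5 of 10 a GAS match. These matches are descriptions of letters in a window and not measured binding. As deposited, the genes that hold an ISRE match did not share a direction, since Gbp2, Gbp3, Gbp5, Gbp7 and Irgm1 were lower and Igtp higher in the cisplatin group. This rests on Igtp alone. Igtp did not pass when the libraries were quantile normalised (log2 fold change -0.011, limma adjusted p = 0.86) and turned lower when they were centred on T-cell markers (-0.45). The members without a window were all higher as deposited, so their motifs could not be set beside their direction.

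**Figure D1:**
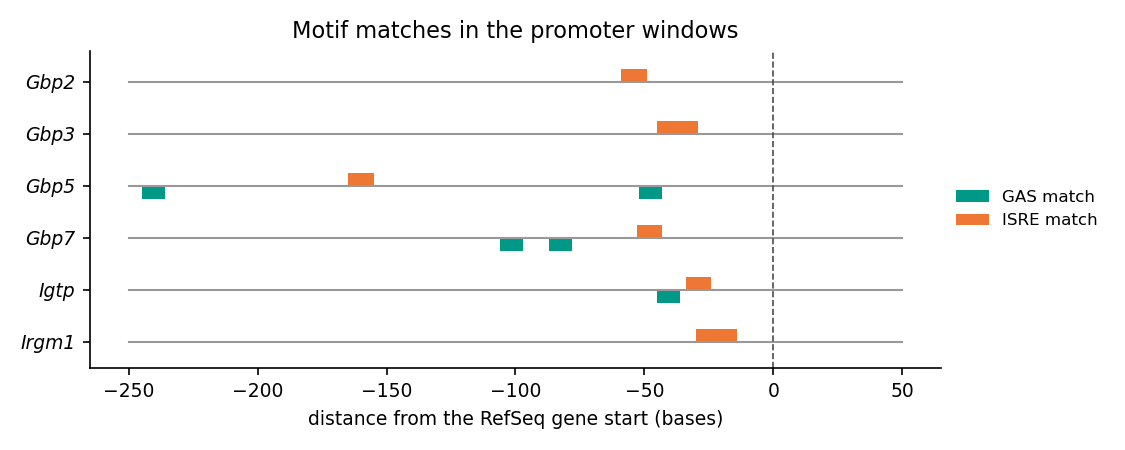
Promoter windows of the 6 genes, with the distance from the RefSeq gene start in bases on the x axis, where ISRE (orange) and GAS (green) matches are drawn to scale and adjoining or overlapping matches merge. Every gene has an ISRE match before its RefSeq start, and Gbp5, Gbp7 and Igtp also have GAS matches.

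All values are FPKM, that is, fragments normalised for gene length and library size, as deposited, so levels can be compared between genes per length. Reads were also rebuilt from FPKM and gene length, and the libraries held 30606569 to 32169496 reads on genes. The 10 genes drew between 2372 reads (Gbp6, control 2) and 21281 reads (Gbp2, control 3) in a library. Fold changes are on the scale of log2(FPKM + 0.1), cisplatin minus control. They were tested with limma in the 15874 genes whose mean reached 0.5 FPKM, with Benjamini-Hochberg adjustment over all of them. A gene passed at an adjusted p below 0.05 and was called when its fold was also at least 2.

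The groups also differed in the levels of cell type markers. All 20 T-cell markers were higher in the cisplatin libraries (median log2 fold change 0.55), and their summed level was 2574 to 2647 FPKM against 1627 to 1746 FPKM in the control libraries. Of the ID8 markers, 16 of 20 were tested and all 16 were lower (median -2.53), with sums of 254 to 260 FPKM against 1714 to 1804 FPKM. Krt7, Igfbp5, Lrrn4 and Tagln, the other ID8 markers, stayed under 1 FPKM in all 6 libraries. B-cell markers were higher for 11 of 12, with sums of 3646 to 3718 FPKM, of which Ighm made up most, against 1707 to 1796 FPKM. Markers of monocytes, macrophages and dendritic cells were higher for 11 of 13 tested, with sums of 144 to 162 FPKM against 74.3 to 78.1 FPKM. Of the NK-cell markers 1 of 5 tested passed, higher, with sums of 11.01 to 12.6 FPKM against 8.99 to 9.84 FPKM. No gene of these lists was at 0 in all libraries. The part of these cells in the results that follow was not tested, and in bulk RNA fewer cells of a type and less RNA per cell cannot be told apart. For each member the value after centring every library on the mean of the 20 T-cell markers is therefore given as well, a scaling that moved the median of all tested genes by -0.56 on the log2 scale.

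As deposited, all 10 genes passed the test, with 5 lower and 5 higher in the cisplatin libraries, but with T-cell centring none was higher, 7 were lower and 3 did not pass. Of all tested genes 56.5% passed, 29.0% lower and 27.5% higher, and with T-cell centring 65.3% passed lower and 4.98% higher. No member was called at a fold of at least 2, by limma on FPKM or by voom on the rebuilt reads. All 10 had an unadjusted limma p under 0.05, as did 9694 of the 15874 tested genes. Among all tested genes 12.8% were called lower and 4.11% higher by limma, and 13.1% and 6.08% by voom. With T-cell centring Gbp3 and Gbp7 were called lower, as were 23.0% of all genes. The 3 cisplatin libraries did not overlap the 3 control libraries for any of the 10 genes, which was also so for 64.2% of all tested genes. The median log2 fold change of the 10 was -0.049 and that of all tested genes 0.028.

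**Figure D2:**
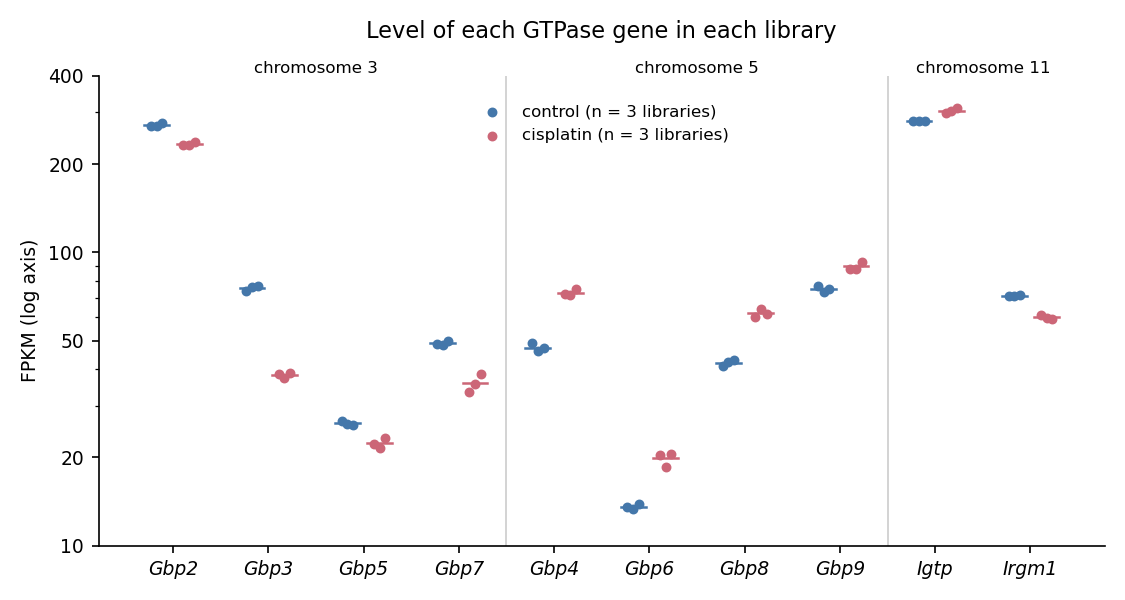
FPKM (log axis) of the 10 genes, grouped by chromosome, with 1 point per library and a line at the mean of each group of 3. Cisplatin points lie below the control points for the 4 genes on chromosome 3 and for Irgm1, and above them for the 4 genes on chromosome 5 and for Igtp, of which none stayed significantly higher after T-cell centring.

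The direction followed the gene cluster, a grouping made after the values were seen and given here without a test. As deposited, the 4 genes of the chromosome 3 cluster were lower and the 4 of the chromosome 5 cluster higher, and on chromosome 11 Igtp was higher and Irgm1 lower, while with T-cell centring the chromosome 3 genes and Irgm1 stayed lower, Igtp and Gbp9 turned lower, and Gbp4, Gbp6 and Gbp8 did not pass.

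Gbp3 showed the largest change of the 10. This member of the chromosome 3 cluster (ENSMUSG00000028268, chr3:142560026-142573209, + strand, GRCm38) measured 74.0, 75.9 and 76.8 FPKM in the control libraries and 38.4, 37.3 and 38.8 FPKM in the cisplatin libraries. The cisplatin values sat close together, far below every control. The mean fell from 75.6 ± 1.46 to 38.2 ± 0.739 FPKM (SD, n = 3), a ratio of 0.505. The log2 fold change was -0.98 (SE 0.030, limma adjusted p = 7.9e-07), just inside the 2-fold limit, and -1.54 with T-cell centring (adjusted p = 8.5e-08). With the values rescaled to TPM it was -1.003 and the gene was called.

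Gbp7, encoded beside Gbp3 and linked to oxidative and autophagic killing of bacteria in macrophages, was the next most reduced. The gene (ENSMUSG00000040253, chr3:142530342-142550149, + strand) measured 48.7, 48.2 and 49.9 FPKM in the control libraries and 33.5, 35.7 and 38.5 FPKM in the cisplatin libraries. The cisplatin libraries were spread more widely than the controls, yet the highest of them was well below the lowest control. Its log2 fold change was -0.45 (SE 0.053, limma adjusted p = 4.2e-04) and -1.01 with T-cell centring (adjusted p = 3.4e-06), where the gene was called. Gm43802, whose 637 exon bases all lie in Gbp7 exons on the same strand and make up 11.3% of them, was listed at 0 in all 6 libraries.

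Gbp2 is among the first Gbp proteins to reach a parasite vacuole and was the most abundant member of the family here. Its gene (ENSMUSG00000028270, chr3:142620602-142638008, + strand) measured 269, 269 and 276 FPKM in the control libraries and 232, 233 and 237 FPKM in the cisplatin libraries. The groups were separated by a gap much wider than the spread within either. Gbp2 was 0.862 times as abundant in the cisplatin group, with a log2 fold change of -0.21 (SE 0.027, limma adjusted p = 6.0e-04), and -0.78 with T-cell centring (adjusted p = 6.9e-07).

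Gbp5 promotes assembly of the NLRP3 inflammasome. The gene (ENSMUSG00000105504, chr3:142493978-142522344, + strand) measured 26.6, 25.9 and 25.9 FPKM in the control libraries and 22.1, 21.6 and 23.3 FPKM in the cisplatin libraries. All cisplatin values were under all control values, by a smaller margin than for Gbp3 or Gbp7. The log2 fold change of Gbp5 was -0.22 (SE 0.039, limma adjusted p = 0.0026), close to that of Gbp2, and -0.79 with T-cell centring (adjusted p = 7.9e-06).

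On chromosome 5 Gbp4 had the largest rise as deposited. It (ENSMUSG00000079363, chr5:105115767-105139586, - strand) measured 48.9, 46.1 and 47.0 FPKM in the control libraries and 71.9, 71.7 and 74.96 FPKM in the cisplatin libraries. The lowest cisplatin library was far above the highest control. Gbp4 was 1.54 times as abundant, with a log2 fold change of 0.62 (SE 0.035, limma adjusted p = 1.2e-05), but 0.059 with T-cell centring (95% interval -0.048 to 0.17, adjusted p = 0.28).

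Gbp8, whose gene body lies over that of Gbp4 and Gbp9 on the same strand, changed by a similar amount. The gene (ENSMUSG00000034438, chr5:105014150-105139540, - strand) measured 41.0, 42.2 and 42.8 FPKM in the control libraries and 60.4, 64.2 and 61.8 FPKM in the cisplatin libraries. Here too the groups were clearly apart. Gbp8 rose by 0.56 on the log2 scale (SE 0.035, limma adjusted p = 1.8e-05), but the difference was 0.0022 with T-cell centring (95% interval -0.068 to 0.073, adjusted p = 0.95). Although Gbp4, Gbp8 and Gbp9 overlap as annotated, they share only 60 or 61 exon bases.

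Gbp6, also of the chromosome 5 cluster, had the lowest listed level of the 10. Its row (ENSMUSG00000104713, chr5:105270702-105293698, - strand) held 13.5, 13.3 and 13.9 FPKM in the control libraries and 20.5, 18.5 and 20.5 FPKM in the cisplatin libraries. All cisplatin libraries were above the controls, with the second a little below the other two. On the log2 scale the change was 0.54 (SE 0.052, limma adjusted p = 1.4e-04), and -0.020 with T-cell centring (95% interval -0.16 to 0.12, adjusted p = 0.78). Of the 75-base stretches of the Gbp6 transcripts 67.3% also occur in other genes, 61.7% in Gm43302 and 40.4% in Gbp10, so the value of Gbp6 is uncertain where reads could be split. Gm43302, which shares 29.0% of the Gbp6 exon bases on the same strand, was listed at 0 in all libraries. The rank of Gbp6 among the 10 is therefore uncertain as well. For the other 9 genes 0 to 11.3% of such stretches occurred elsewhere.

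Gbp9 was the most abundant gene of the chromosome 5 cluster. It (ENSMUSG00000029298, chr5:105077630-105139539, - strand) measured 76.9, 73.5 and 74.9 FPKM in the control libraries and 88.0, 87.7 and 92.8 FPKM in the cisplatin libraries. The groups did not overlap, but the rise was smaller than for its neighbours. Gbp9 rose by 0.25 on the log2 scale (SE 0.035, limma adjusted p = 8.8e-04), and the change turned to -0.31 with T-cell centring (adjusted p = 5.2e-04).

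Igtp, also known as Irgm3, is a regulatory Irg protein of the endoplasmic reticulum and lipid droplets, and it was the most abundant of the 10 genes. Igtp (ENSMUSG00000078853, chr11:58199556-58207591, + strand) measured 281, 280 and 281 FPKM in the control libraries and 299, 303 and 310 FPKM in the cisplatin libraries. The controls were nearly identical and every cisplatin library was slightly higher. A log2 fold change of 0.11 (SE 0.027, limma adjusted p = 0.011) was the smallest of the 10. It was -0.45 with T-cell centring (adjusted p = 1.4e-05), -0.011 with quantile normalisation (adjusted p = 0.86), and missed the threshold without the variance trend (adjusted p = 0.052). Igtp shares 162 exon bases with Irgm2 on the same strand.

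Irgm1, another regulatory Irg protein, without which mouse CD4+ T cells die when interferon-γ is present, moved the other way. The gene (ENSMUSG00000046879, chr11:48861968-48871683, - strand) measured 71.1, 71.0 and 71.6 FPKM in the control libraries and 61.3, 59.8 and 59.2 FPKM in the cisplatin libraries. All cisplatin libraries were below all controls. The log2 fold change was -0.24 (SE 0.027, limma adjusted p = 3.0e-04) and -0.81 with T-cell centring (adjusted p = 1.3e-06).

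**Figure D3:**
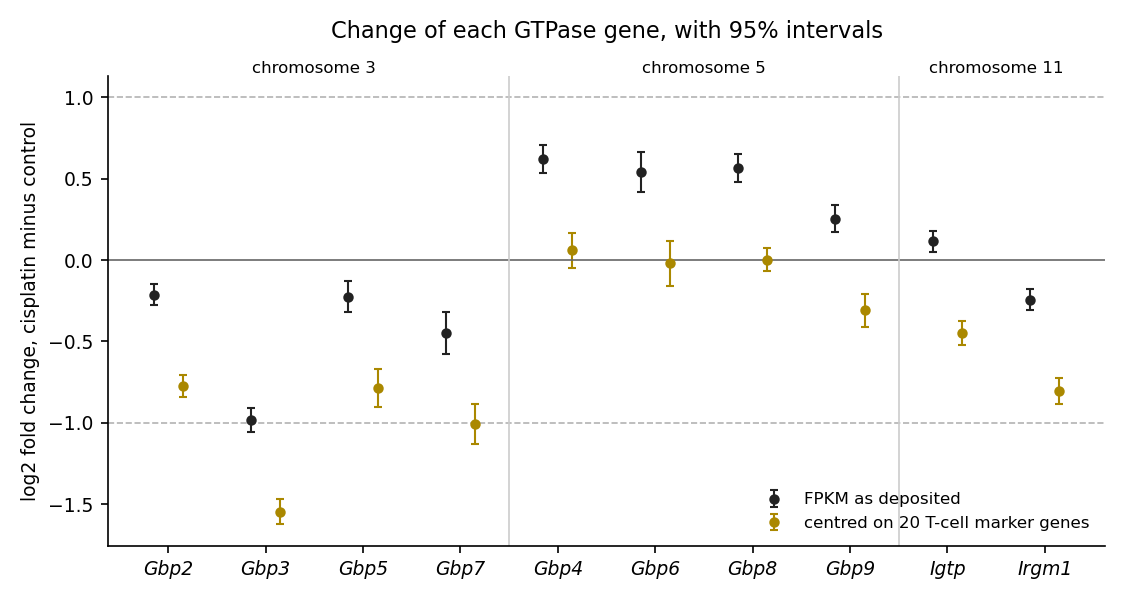
Log2 fold change (cisplatin minus control) of each gene with its 95% interval, from FPKM as deposited (black) and after centring on T-cell markers (ochre), with dashed lines at a 2-fold change. As deposited 5 genes are above 0 and 5 below, and after centring Gbp4, Gbp6 and Gbp8 have intervals that include 0 while the other 7 are below it.

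As deposited, changes in opposite directions left the total of the family nearly the same, while with T-cell centring the total was 0.668 times the control. That centring lowered genes in general, with a median log2 fold change of -0.61 for the 10 genes and -0.53 for all tested genes. The summed deposited level of the 10 genes was 951, 946 and 959 FPKM in the control libraries and 927, 932 and 957 FPKM in the cisplatin libraries, and the groups overlapped. The chromosome 3 genes fell from 422 ± 5.51 to 330 ± 6.45 FPKM (SD, n = 3) and the chromosome 5 genes rose from 178 ± 2.65 to 244 ± 5.03 FPKM, but with T-cell centring the chromosome 5 sum was 0.930 times and the chromosome 3 sum 0.531 times the control. Their share of the sum went from 44.3% to 35.2% for chromosome 3 and from 18.7% to 26.0% for chromosome 5. Igtp and Gbp2 together made up 58.0% of the sum in the control and 57.3% in the cisplatin group.

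Ratios between members within a library do not depend on a scaling factor. The sum of the chromosome 5 genes over that of the chromosome 3 genes was 0.431, 0.418 and 0.417 in the control libraries and 0.738, 0.740 and 0.740 in the cisplatin libraries. The cisplatin libraries were almost alike and well above the controls. Gbp4 over Gbp3 was 0.662, 0.608 and 0.612 in the control libraries and 1.87, 1.92 and 1.93 in the cisplatin libraries, so the gene of the pair that was lower became the higher. The ratio of Igtp to Gbp2 moved less, from 1.03 ± 0.0144 to 1.30 ± 0.00884 (SD, n = 3). Igtp over Irgm1 went from 3.94 ± 0.0203 to 5.06 ± 0.177. Such a ratio shows unequal change, not which gene changed. The ratios are given as descriptions, with no test.

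**Figure D4:**
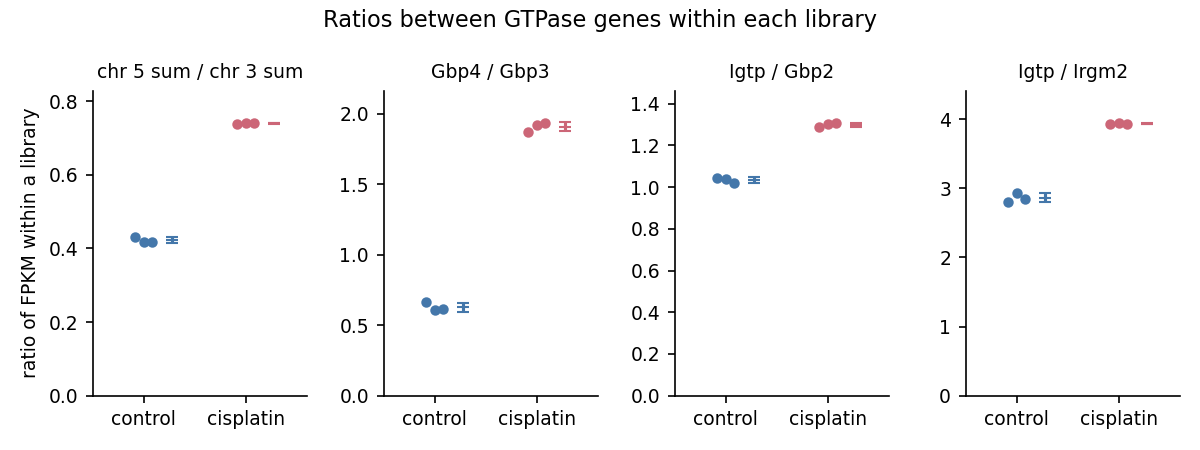
Ratios of FPKM within each library (y axes from 0) for the chromosome 5 over chromosome 3 sums, Gbp4 over Gbp3, Igtp over Gbp2 and Igtp over Irgm2, with points for libraries and the mean ± SD of 3 beside them. In every panel the 3 cisplatin libraries lie above the 3 control libraries.

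The order of the levels also changed. In the control group it ran from Igtp over Gbp2, Gbp3, Gbp9, Irgm1, Gbp7, Gbp4, Gbp8 and Gbp5 to Gbp6, and only Gbp3 and Gbp9, and Gbp7 and Gbp4, had overlapping ranges among neighbours. In the cisplatin group it ran from Igtp over Gbp2, Gbp9, Gbp4, Gbp8, Irgm1, Gbp3, Gbp7 and Gbp5 to Gbp6, with overlap between Gbp8 and Irgm1 and between Gbp3 and Gbp7. Igtp and Gbp2 stood above 99% of the tested genes in both groups. Gbp6, the lowest of the 10 as listed, moved from the 72.5th to the 82.5th percentile.

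Of 13 related GTPases of the same families, 5 rose, 1 fell and 7 did not pass as deposited, and no gene was called. Quantile normalisation raised the 5 to 9, and voom to 8. By comparison, 27.5% of all tested genes passed higher and 29.0% lower as deposited. The 3 cisplatin libraries did not overlap the controls for 6 of the 13, against 64.2% of all tested genes. The median log2 fold change of the 13 was 0.12. With T-cell centring 0 of the 13 were higher and 9 were lower (median -0.44), against 4.98% and 65.3% of all tested genes (median -0.53). The genes of the chromosome 5 cluster outside the 10 were both higher as deposited, Gbp10 (26.6 to 34.9 FPKM, log2 fold change 0.39, limma adjusted p = 6.4e-04) and Gbp11 (2.51 to 3.77 FPKM, 0.57, adjusted p = 0.0024). With T-cell centring Gbp10 was lower (-0.17, adjusted p = 0.036) and Gbp11 did not pass (0.0087, adjusted p = 0.95). Since 40.4% of the 75-base stretches of Gbp6 also occur in Gbp10, reads could be split between Gbp6 and Gbp10. Gbp2b, on chromosome 3, was at 0.277 to 0.918 FPKM and its groups overlapped (log2 fold change 0.58, limma adjusted p = 0.23). Its fitted change was thus above 0, unlike that of the chromosome 3 members, but it did not pass. Irgm2, a regulatory Irg protein beside Igtp, went from 98.0 to 77.2 FPKM (-0.34, adjusted p = 1.2e-04), so that Igtp over Irgm2 moved from 2.86 ± 0.0679 to 3.94 ± 0.00704 (SD, n = 3) within libraries. The effector Irg genes Ifi47 (0.44), Tgtp1 (0.42) and the Irg-like 9930111J21Rik1 (0.64) were higher as deposited on the log2 scale, while with T-cell centring Ifi47 was lower (-0.12) and neither of the others passed. Tgtp2, a near-copy of Tgtp1, missed the threshold (0.12, adjusted p = 0.056), and reads could be split between the pair, as between 9930111J21Rik1 and 9930111J21Rik2. Gm12250 (0.052), Gm12185 (-0.079), 9930111J21Rik2 (0.10), Gvin1 (0.039) and Irgq (0.026) did not pass as deposited, and each was lower with T-cell centring.

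Upstream of the 10 genes, the transcript for interferon-γ was scarce, while the protein was not measured here. Ifng, which encodes it, measured 0.206, 0.283 and 0.252 FPKM in the control libraries and 0.429, 1.002 and 0.810 FPKM in the cisplatin libraries, or 8 to 11 and 18 to 43 reads. The groups did not overlap, but the mean of Ifng was under the filter, and without the filter its log2 fold change of 1.23 missed the threshold (limma adjusted p = 0.054). By voom on the rebuilt reads it was 1.57 (adjusted p = 0.017). Among 8 genes that promote Ifng expression 7 were higher as deposited (median log2 fold change 0.34), against 27.5% of all tested genes. With T-cell centring 1 of the 8 was higher and 4 were lower (median -0.22), against 4.98% and 65.3% of all tested genes (median -0.53). Eomes, a T-box factor of effector T cells, was the only one called (1.33 to 2.86 FPKM, 1.05, adjusted p = 3.0e-04), though not with T-cell centring (0.49), a pseudocount of 1 (0.73) or without control replicate 1 (0.98). Tbx21, the T-box factor of Th1 cells, was at 0.59 (adjusted p = 5.2e-04) and at 0.027 with T-cell centring (adjusted p = 0.74).

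Of 11 signalling genes tested, 7 were higher, 3 lower and 1 not passed as deposited (median log2 fold change 0.17), with no gene called. The shares of all tested genes were 27.5% higher and 29.0% lower (median 0.028), with 4.11% called higher and 12.8% called lower. With T-cell centring 1 was higher and 9 were lower (median -0.39), against 4.98% and 65.3% of all tested genes (median -0.53). The receptor chains moved apart. Ifngr1 measured 79.1, 80.8 and 82.8 FPKM in the control libraries and 148, 144 and 141 FPKM in the cisplatin libraries, without overlap (0.84, limma adjusted p = 2.0e-06, and 0.27 with T-cell centring, adjusted p = 2.6e-04). Ifngr2 went from 17.0 to 12.4 FPKM (-0.46, adjusted p = 1.6e-04). Of the kinases Jak2 was at 0.17 (adjusted p = 0.011) and Jak1 at -0.044 (adjusted p = 0.20). Irf1, a factor that interferon-γ induces, went from 79.9 to 107 FPKM (0.42, adjusted p = 6.5e-05), and Irf8 was at 0.36. Jak1, Jak2, Irf1 and Irf8 were each lower with T-cell centring. The feedback inhibitor Socs1 was higher as deposited (0.46, adjusted p = 0.0030) and did not pass with centring (adjusted p = 0.27), whereas Socs3 (-0.20) and the phosphatase Ptpn11 (-0.23) were lower under both.

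Among 24 other tested targets of interferon-γ, 13 were higher, 4 lower and 7 not passed as deposited (median log2 fold change 0.19). Of all tested genes 27.5% passed higher and 29.0% lower (median 0.028), and 4.11% were called higher and 12.8% lower. With T-cell centring 1 was higher and 17 were lower (median -0.37), against 4.98% and 65.3% of all tested genes (median -0.53). Called lower were Nos2, the inducible nitric oxide synthase (32.4 to 4.67 FPKM, -2.77, limma adjusted p = 1.4e-07), and the transcription factor Batf2 (-1.71). Serpina3g, a serine protease inhibitor of T cells, was called higher (29.6 to 67.4 FPKM, 1.18, adjusted p = 4.0e-07), but not with T-cell centring (0.62). The most abundant of these genes, B2m (-0.087), H2-K1 (0.049) and H2-D1 (0.054) of MHC class I, did not pass as deposited. Each was lower with T-cell centring (-0.65, -0.51 and -0.51). By voom H2-K1 (0.13) and H2-D1 (0.14) passed higher and B2m did not pass (-0.0038). Genes that type I interferons induce gave other counts, since 22 of 24 were lower, 12 of them called, with a median log2 fold change of -0.996. By comparison, 29.0% of all tested genes passed lower and 12.8% were called lower. After T-cell centring 24 of the 24 type I genes were lower (median -1.56). Oasl2 (-2.84), Ifit3b (-2.62) and Ifi44 (-2.49) fell most, against a range of -0.98 to 0.62 among the 10 GTPases. An ISRE match was found in 11 of the 18 type I genes with a window and a GAS match in 3 of 18.

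Of 17 genes for proteins that load the GTPases onto vacuoles or act with them, 7 were higher, 4 lower and 6 not passed as deposited (median log2 fold change 0.13). Among all tested genes 27.5% passed higher and 29.0% lower (median 0.028), and 12.8% were called lower. With T-cell centring 1 was higher and 13 lower (median -0.43), against 4.98% and 65.3% of all tested genes (median -0.53). Gsdmd, the pore-forming gasdermin cut downstream of Gbp-driven inflammasomes (108 to 47.9 FPKM, -1.18, limma adjusted p = 5.1e-06), and Atg7, needed for the lipidation that places Irg and Gbp proteins (10.1 to 4.88 FPKM, -1.03, adjusted p = 2.1e-05), were called lower. Atg7 was no longer called with quantile normalisation (-0.88), a pseudocount of 1 (-0.91) or voom (-0.96), nor without cisplatin replicate 1 (-0.98) or control replicate 2 (-0.995). Casp1, which cuts gasdermin, went from 9.34 to 17.6 FPKM (0.91, adjusted p = 3.5e-05, and 0.34 with T-cell centring), and Casp4, the caspase that senses bacterial lipopolysaccharide, from 11.5 to 8.31 FPKM (-0.47, adjusted p = 0.0025).

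**Figure D5:**
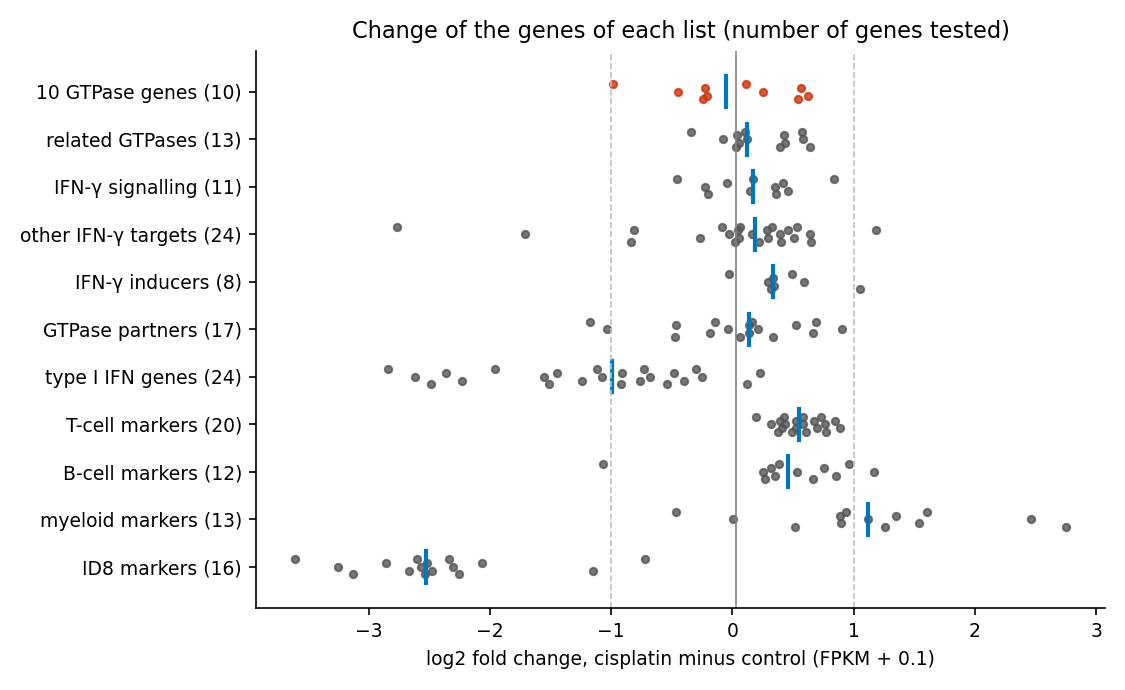
Log2 fold change of every tested gene of each list (points, 10 GTPase genes in red) with the list median (blue bar), the median of all tested genes (grey line, 0.028) and 2-fold limits (dashed). The 10 GTPase genes fall within the 2-fold limits on both sides of 0, the type I interferon genes mostly below -0.25, and the ID8 markers below the median of all genes.

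Genes with a profile like that of Igtp over the 6 libraries were many, with 486 tested genes within 0.05 log2 units of root mean square difference. The nearest were Pik3ca, Rab35, Nap1l4, Spata13 and Hsp90b1.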

How the data were processed

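T-cell RNA was sequenced in 3 cisplatin and 3 control libraries, and groups came from the sample labels. The authors deposited FPKM per gene. The study's methods name LifeScope for alignment and counting, while the submitters' processing notes name fastp, HISAT2 2.0.5, featureCounts 1.5.0-p3 and mm10. Strand handling and the treatment of reads on several genes are not given in the sources used here. Gene coordinates equalled GENCODE M21 for 53585 of 54495 genes and all 10 members.

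The values were analysed with limma 3.58.1 (R 4.3.3; lmFit, eBayes with trend) on log2(FPKM + 0.1), for genes whose mean reached 0.5 FPKM. Adjusted p-values are Benjamini-Hochberg over all 15874 genes tested. FPKM times gene length gave whole reads within 0.1 for 100% of values, and voom was run on these reads as an alternative (at least 10 reads in at least 3 libraries). These depths cover counting error only. Members, lists, the grouping by chromosome and the tests were chosen with earlier results of these data known. All 10 members were named, and some list genes are not reported here by name. From the lists, the called genes with the largest change (up to 5) and the most abundant (up to 3) could be named, with the related GTPases and signalling genes. Tbx21, Casp1, Casp4 and 4 ID8 markers fall outside that rule and were chosen after their values were seen. For the most abundant member the 5 genes nearest in profile were taken. Promoter windows are RefSeq (GRCm38.p6). No 2 libraries were identical (chi-square per degree of freedom 5.35 to 6.44 between replicates). The steps were tested on simulated data. Python 3.11.15, numpy 2.4.6, pandas 2.3.3, scipy 1.17.1 and matplotlib 3.10.9 were used.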

Additional observations from a re-analysis of the deposited data

How the results depend on the processing

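The 5 lower and 5 higher members kept their direction and passed with pseudocounts of 1 and 0.01, other filters, median-of-ratios scaling, TPM, voom and each library left out. Centring on T-cell markers left 0 members passing higher and 2 called lower (Gbp3 and Gbp7). It gave -0.020 for Gbp6 (adjusted p = 0.78), -0.31 for Gbp9 and -0.45 for Igtp, and Gbp4 (0.059) and Gbp8 (0.0022) no longer passed. Quantile normalisation, which moved the median of all genes by 0.13, gave -0.011 for Igtp. Without the variance trend Igtp had an adjusted p of 0.052. The cause of these changes was not tested. TPM called 1 member lower (Gbp3). The 6 pathway lists held 13, 11, 24, 24, 8 and 17 tested genes. Over them 16 genes were called lower, 12 of them type I interferon genes, and 2 higher. The shares of all tested genes were 12.8% lower and 4.11% higher. T-cell centring gave 28 and 0, where 23.0% of all tested genes were called lower and 0.920% higher. A pseudocount of 1 or a minimum mean of 5 FPKM gave 1 higher. Leaving out single libraries gave 15 to 16 lower and 1 to 2 higher, with 1 without control replicate 1. Of all calls at a fold of at least 2, 75.7% were lower as deposited, 96.2% with T-cell centring, 64.6% with quantile normalisation and 68.2% by voom. With the replicate number as a block, 0 members were called, 5 passed lower, 5 passed higher, and 16 and 2 list genes were called. Same-numbered libraries did not deviate together (correlations -0.063 to 0.023), so the numbers were not taken to pair them. The depth of over 2000 reads per member does not limit these values, but 8 to 43 reads limit Ifng.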
